A study of Sus scrofa with 9 samples.

Results

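The nuclear genes of oxidative phosphorylation, meaning the subunits of respiratory complexes I to IV and of the ATP synthase (complex V), were followed over 3 stages of molar formation in the miniature pig. Members were chosen by name alone: each probe set with a single gene symbol that begins with NDUFA, NDUFB, NDUFC, NDUFS, NDUFV, UQCR, COX4 to COX8 or ATP5, or that is SDHA, SDHB, SDHC, SDHD or CYC1. This gave 80 probe sets for 63 genes, of 6765 genes with a probe set of their own on the array, and each gene was represented by its brightest probe set. Complex I held 36 of the 63 genes, complex II 4, complex III 2, complex IV 7 and complex V 14. The name rule also took in genes not counted as subunits. These were the assembly factors NDUFAF1, NDUFAF2 and NDUFAF3 in complex I and ATP5S, coupling factor B, in complex V.

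The samples were additional molar germs with attached dental lamina, cut from mandibles of Wuzhishan miniature pig embryos and fetuses at day 50, 60 or 70 of gestation (E50, E60, E70). The first molar was at the cap stage with no second molar started at E50, at the bell stage with the second molar starting at E60, and at the late bell stage with little change in the second molar at E70. Each stage had 3 Affymetrix porcine arrays, labelled as biological replicates, of RNA pooled from germs, so the p-values measure only the spread between these arrays. The study's methods pooled germs of the same stage and litter and give no litter for each array, so litter and stage cannot be told apart. The labels give no treatment or genotype, and each germ holds epithelium, mesenchyme and any adhering tissue.

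In mitochondria, complex I takes electrons from NADH and complex II takes them from succinate, and both pass them through ubiquinone to complex III. Cytochrome c carries them on to complex IV, which reduces oxygen, while complexes I, III and IV pump protons that drive the ATP synthase. Some core subunits of complexes I, III, IV and V are encoded in mitochondrial DNA, and none of the 34 symbols in use for these subunits was found among the single-symbol probe sets, so every value here belongs to a nuclear gene. Each large complex is built from catalytic core subunits and many small accessory subunits that surround and stabilise the core.

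The E50 arrays stood apart from the others before any gene was compared. Every array had been scaled to the same trimmed mean of about 500.1, but the median signal was 261, 267 and 352 at E50 and lay between 164 and 184 on the 6 later arrays. Correlations between arrays of one stage were 0.605 to 0.683 for E50, while those for E60 ran between 0.902 and 0.914 and those for E70 between 0.901 and 0.921. The ratio of the 3′ to the 5′ control probe sets of EF1A, a measure of how intact the labelled RNA was, lay between 49.3 and 55.8 at E50, between 1.42 and 1.56 at E60 and between 1.35 and 1.47 at E70. The same ratio for GAPDH was 29.7 to 42.2 on the E50 arrays, 6.98 to 9.24 on the E60 arrays and 4.36 to 6.47 on the E70 arrays, and for actin it was 165 to 2308, 30.1 to 34.9 and 22.9 to 26.3 in the same order of stages. The median SD of log2 signal over probe sets was 1.03 for E50, 0.26 for E60 and 0.32 for E70. The hybridisation spike-in controls had geometric mean signals of 58370 to 66123 on the E50 arrays, 4150 to 4268 on the E60 arrays and 3086 to 3938 on the E70 arrays. These measures moved with every comparison that involves E50, and stage and array quality cannot be told apart there. The E70 against E60 comparison is free of the E50 arrays except for the shared estimate of spread.

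Of the 63 genes, 58 were above the background of their array on all 9 arrays, taken as the 95th percentile of 23 control probe sets with no pig target. The exceptions were NDUFA10, NDUFAF1, NDUFV3, COX8H and ATP5S. Changes below are fitted differences of log2 signal with their standard errors (SE), and a change was called at an adjusted p under 0.05 over all 23999 probe sets. In these germs fewer cells of a type and less RNA per cell cannot be told apart.

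Most of the changes lay between E50 and the later stages. At E60, 27 of the 63 genes were lower than at E50 (42.9%), 1 gene was higher, and 35 did not pass. Over all 6765 genes 13.7% were called lower and 7.2% higher in the same comparison. The median change of the members was -0.49, against -0.18 over all genes. All 3 E60 arrays lay below all 3 E50 arrays for 35 members and above them for 5, where 27.5% and 18.2% of all genes did so. The split between higher and lower calls depended on the scaling: with each array centred on its median signal the median of all genes was 0.59 in place of -0.18, and 9 members were lower and 7 were higher, where 3.92% of all genes were lower and 21.3% higher. All 9 were among the 27. The 7 higher ones were then NDUFA5, NDUFS1, SDHA, ATP5A1, ATP5B, ATP5F1 and ATP5S. With array quality weights 17 members were lower and none was higher, where 4.69% and 3.74% of all genes were, and with the E60 and E50 arrays fitted alone the counts were 19 and 0, where 6.65% and 3.24% of all genes were.

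**Figure D1:**
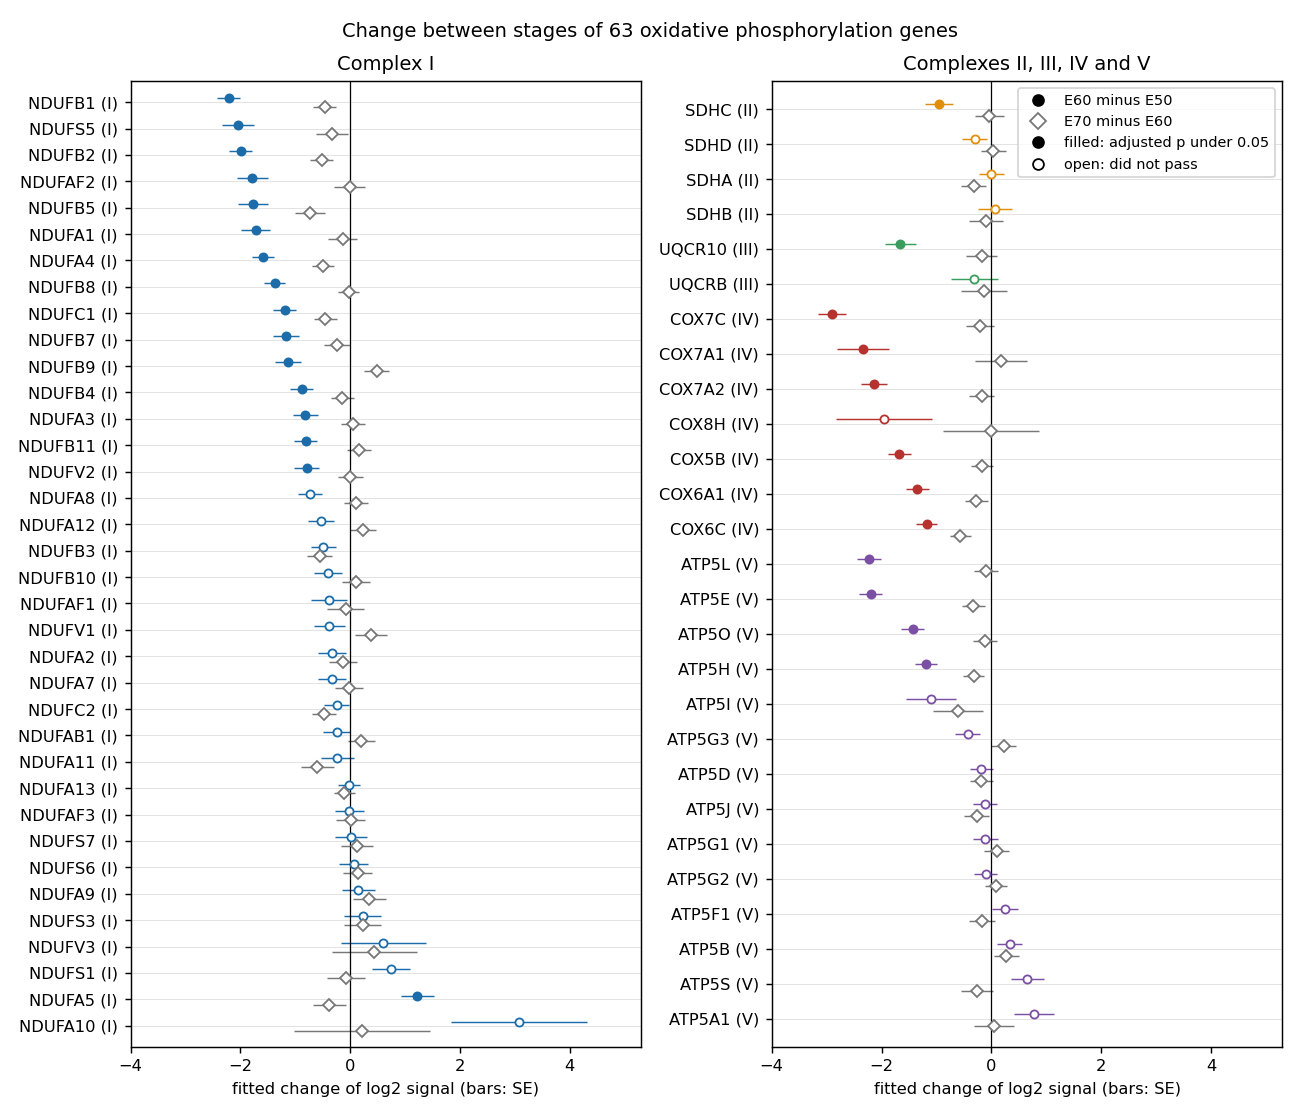
Fitted change of log2 signal for each of the 63 genes, E60 minus E50 in colour and E70 minus E60 in grey, with bars for the SE and filled symbols for an adjusted p under 0.05. For E60 minus E50, 6 of the 7 complex IV genes are filled on the left of 0, against 15 of 36 in complex I, 1 of 4 in complex II, 1 of 2 in complex III and 4 of 14 in complex V, and no grey symbol is filled.

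Complex I, with the most genes, showed the widest spread of changes, from -2.22 (NDUFB1) to 3.08 (NDUFA10). NDUFA10 was above background on 1 of 3 E50 arrays and did not pass. At E60, 15 of 36 complex I genes were lower than at E50 and 1 higher, where 13.7% and 7.2% of all genes were. The median change was -0.45, against -0.18 over all genes. With arrays centred on their medians, 4 were lower, 2 were higher and the median was 0.32, against 0.59 over all genes. When the genes were sorted by the part of the complex they encode, a sorting made after the values were seen, 8 of the 10 NDUFB genes were lower, with a median of -1.15. The NDUFB proteins are accessory subunits of the membrane arm. Of 13 NDUFA genes, counted here with the acyl carrier NDUFAB1, 3 were lower and 1 was higher. Of the 5 core subunits measured (NDUFS1, NDUFS3, NDUFS7, NDUFV1 and NDUFV2), 1 was lower and the median change was 0.02. They belong to the part that carries the electrons from NADH to ubiquinone.

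NDUFB1, a small subunit of the membrane arm, gave signals of 3930, 3154 and 3611 at E60, against 15225, 17757 and 16622 at E50. Its 3 E60 arrays were close together and far below every E50 array, a change of -2.22 (SE 0.21, adjusted p = 0.00146). NDUFB2, of the same arm, gave 3435, 3121 and 3337 at E60, against 15108, 13452 and 11233 at E50 (-2.00, SE 0.21, adjusted p = 0.00214). NDUFS5, an accessory subunit of the membrane arm in spite of its name, gave 5669, 4502 and 5713 at E60, against 20700, 23785 and 20473 at E50 (-2.04, SE 0.29, adjusted p = 0.00561). The groups did not overlap for either gene. The other NDUFB genes called lower were NDUFB4, NDUFB5, NDUFB7, NDUFB8, NDUFB9 and NDUFB11, with changes between -1.77 (NDUFB5) and -0.81 (NDUFB11). NDUFB3 changed by -0.49 (adjusted p = 0.167) and NDUFB10 by -0.41 (adjusted p = 0.295). Of the NDUFB calls, NDUFB11 was lost without any one of the E60 or E70 arrays, NDUFB4 without any E60 array, NDUFB7 without E60 replicate 1 or 3 and NDUFB9 without E60 replicate 1 or 2, with an adjusted p of at most 0.143.

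Among the NDUFA genes the called falls were NDUFA1 (-1.72), NDUFA4 (-1.59) and NDUFA3 (-0.82), of which NDUFA3 was lost without any one of the E60 or E70 arrays. NDUFA4, long listed with complex I and now assigned to complex IV, gave 5255, 5236 and 5488 at E60, against 15226, 17160 and 15860 at E50 (SE 0.20, adjusted p = 0.00359). Its E60 arrays lay close together, far below the lowest E50 array. NDUFA5, a subunit of the peripheral arm, was the only member called higher. It gave 1167, 1406 and 1253 at E60, against 406, 570 and 707 at E50, with no overlap (1.22, SE 0.30, adjusted p = 0.0316). That call was lost when any E60 array or E70 replicate 3 was left out, with an adjusted p of at most 0.108.

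For the remaining accessory subunits of complex I, 1 call was made. NDUFC1 fell by 1.19 (adjusted p = 0.0109, and 0.0522 without E60 replicate 1), and NDUFC2 changed by -0.25 (adjusted p = 0.462). NDUFA2, NDUFA7, NDUFA8, NDUFA9, NDUFA11, NDUFA12, NDUFA13, NDUFAB1 and NDUFS6 did not pass, with changes between -0.73 (NDUFA8) and 0.15 (NDUFA9). NDUFA13, also known as GRIM-19, overlapped between the stages, at 2453, 2542 and 2779 at E60, against 2384, 2781 and 2748 at E50. NDUFA10 gave 495, 556 and 578 at E60, against 118, 331 and 7 at E50, where only 1 of the 3 arrays was above background, and did not pass (adjusted p = 0.127). NDUFV3 was at or near background and did not pass either (adjusted p = 0.614).

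Of the core subunits, 1 of 5 passed the test. NDUFV2, an iron-sulfur subunit, gave 2429, 2561 and 2444 at E60, against 4166, 5232 and 3653 at E50 (-0.80, SE 0.23, adjusted p = 0.0481), and the call held in only 1 of the 9 fits that left out an array, the one without E50 replicate 3. NDUFV1, which binds NADH, changed by -0.38, NDUFS7 by 0.02, NDUFS3 by 0.23 and NDUFS1, the largest core subunit, by 0.75, and none of these passed. NDUFS1 was nevertheless above every E50 array at E60, with 979, 1078 and 977 at E60 against 867, 366 and 686 at E50. With the mean of its 3 probe sets in place of the brightest, NDUFS3 was called higher at E60 and at E70, against E50. Of the 3 assembly factors in the set, which help to build complex I and are not part of it, NDUFAF2 fell by 1.78 (SE 0.28, adjusted p = 0.00772), NDUFAF1 changed by -0.39 and NDUFAF3 by -0.02.

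Complex II, succinate dehydrogenase, is also an enzyme of the citric acid cycle and has no subunit encoded in mitochondrial DNA. At E60, 1 of its 4 genes was lower than at E50, where 13.7% of all genes were. The median change was -0.15, near the -0.18 over all genes. With arrays centred on their medians, none was lower, 1 was higher and the median was 0.62, against 0.59 over all genes. With the mean of all probe sets per gene, 1 was lower and the median was 0.20, against -0.22 over all genes. SDHA, the flavoprotein, gave 1345, 1278 and 1212 at E60, against 1059, 1299 and 1522 at E50. SDHB, the iron-sulfur subunit, gave 2832, 2313 and 2187 at E60, against 2180, 2140 and 2698 at E50. The arrays of the 2 stages overlapped for both genes, with a change of 0.06 for SDHB (SE 0.31) and a smaller one for SDHA (SE 0.22). A second probe set of SDHB was called higher, as given further below. SDHD, a membrane anchor, gave 2667, 3650 and 3305 at E60, against 3989, 3828 and 3971 at E50, below every E50 array but not past the test (-0.30, SE 0.23, adjusted p = 0.379). SDHC, the other membrane anchor, gave 567, 835 and 685 at E60, against 1325, 1130 and 1598 at E50 (-0.96, SE 0.26, adjusted p = 0.04). The SDHC call was lost when any array other than E50 replicate 2 was left out, with an adjusted p of at most 0.141.

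Complex III, the cytochrome bc1 complex, had 2 measured genes. With arrays centred on their medians, neither was called at E60 against E50. UQCR10, a small subunit, gave 4900, 2780 and 3216 at E60, against 11200, 13205 and 9392 at E50, a 3.17-fold fall without overlap (-1.66, SE 0.28, adjusted p = 0.00957). UQCRB, a ubiquinone-binding subunit, gave 3900, 3332 and 2974 at E60, against 5552, 6307 and 2107 at E50. One E50 array of UQCRB lay below all the E60 arrays, and the change of -0.31 did not pass (SE 0.42, adjusted p = 0.636).

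Complex IV, cytochrome c oxidase, had the largest share of members called lower. At E60, 6 of its 7 genes were lower than at E50, where 13.7% of all genes were. All 7 had every E60 array below every E50 array, where 27.5% of all genes did. The median change was -1.96, against -0.18 over all genes. That median was the change of COX8H, which was above background on 1 of 3 E50 arrays and did not pass. The median was -1.67 with log2(signal + 16) and -1.38 after quantile normalization. With arrays centred on their medians, 3 of the 7 were lower, where 3.92% of all genes were. All 7 encode nuclear subunits around the catalytic core. COX7C gave 17876, 13252 and 12523 at E60, against 116222, 120936 and 88652 at E50, a 7.49-fold fall (-2.90, SE 0.25, adjusted p = 0.00123). COX5B gave 5982, 6441 and 6396 at E60, against 18362, 21330 and 20458 at E50 (-1.67, SE 0.20, adjusted p = 0.00322). COX6C gave 22948, 21248 and 24836 at E60, against 50898, 51227 and 54178 at E50 (-1.18, SE 0.19, adjusted p = 0.00835). COX5B and COX6C were each within a narrow band at both stages.

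Some complex IV subunits exist as isoforms, one of them used in heart and skeletal muscle and the other in most tissues. COX7A2, the widely used isoform, gave 5659, 7003 and 6622 at E60, against 25733, 28352 and 30571 at E50 (-2.14, SE 0.23, adjusted p = 0.00227). COX7A1, its muscle isoform, gave 681, 292 and 464 at E60, against 3528, 2421 and 1407 at E50 (-2.34, SE 0.47, adjusted p = 0.0162). COX6A1, a widely used isoform, gave 7174, 6548 and 6980 at E60, against 15907, 17634 and 19323 at E50 (-1.35, SE 0.22, adjusted p = 0.00781). Members of both kinds fell. COX8H, a muscle isoform, gave 17, 120 and 138 at E60, against 206, 322 and 241 at E50, with 2 of 3 E60 arrays and 1 of 3 E50 arrays above background, and did not pass (-1.96, SE 0.87, adjusted p = 0.159). The COX7A1 call was lost without E60 replicate 2 or replicate 3, with an adjusted p of at most 0.0585. The COX4 and COX6B genes were not analysed here.

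Skeletal muscle markers were also lower at E60 than at E50. Of 19 muscle markers measured, 11 were lower at E60 than at E50, where 13.7% of all genes were. Their summed signal was 3003 to 3224 at E60, against 10041 to 11750 at E50. At E70 it was 1339 to 1381, with 5 of the 19 below background on all 3 arrays at E70, 1 at E60 and 2 at E50. The part of muscle tissue in the changes of COX7A1 and COX8H was not tested. Between E60 and E70 COX7A1 changed by 0.17 (SE 0.47) and COX8H by -0.01 (SE 0.87). The median change of the muscle markers over that step was -0.97, with 2 of the 19 called lower, where 0.606% of all genes were.

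Complex V, the ATP synthase, was divided between genes that fell and genes that did not. At E60, 4 of its 14 genes were lower than at E50 and none higher, where 13.7% and 7.2% of all genes were. The median change was -0.15, near the -0.18 over all genes. With arrays centred on their medians, 2 were lower, 4 were higher and the median was 0.62, against 0.59 over all genes. ATP5L, subunit g of the membrane part, gave 6966, 8214 and 7982 at E60, against 38964, 38355 and 31404 at E50 (-2.23, SE 0.22, adjusted p = 0.00174). ATP5E, the epsilon subunit of the rotating central stalk, gave 12244, 11571 and 13181 at E60, against 53220, 51947 and 65129 at E50 (-2.20, SE 0.21, adjusted p = 0.00152). In the stalk that holds the catalytic head still, ATP5O gave 8336, 8278 and 8673 at E60, against 22655, 19653 and 26564 at E50 (-1.43, SE 0.22, adjusted p = 0.00645). These genes, with ATP5H of the same stalk (-1.19, SE 0.20, adjusted p = 0.00863), lay at E60 below every E50 array.

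For the subunits of the catalytic head the fitted changes were positive but did not pass. ATP5A1, the alpha subunit, gave 10354, 11402 and 11187 at E60, against 8861, 8311 and 3545 at E50 (0.78, SE 0.36, adjusted p = 0.177). ATP5B, the catalytic beta subunit, gave 8084, 8130 and 7834 at E60, against 6253, 7926 and 5153 at E50 (0.34, SE 0.23, adjusted p = 0.336). The lowest value of each gene was that of E50 replicate 3. The 3 genes ATP5G1, ATP5G2 and ATP5G3, which encode the same mature c subunit of the rotating ring, changed by -0.11, -0.10 and -0.43, and none passed. ATP5F1 (0.26), ATP5J (-0.12), ATP5D (-0.19), ATP5I (-1.10) and ATP5S (0.66) also did not pass.

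**Figure D2:**
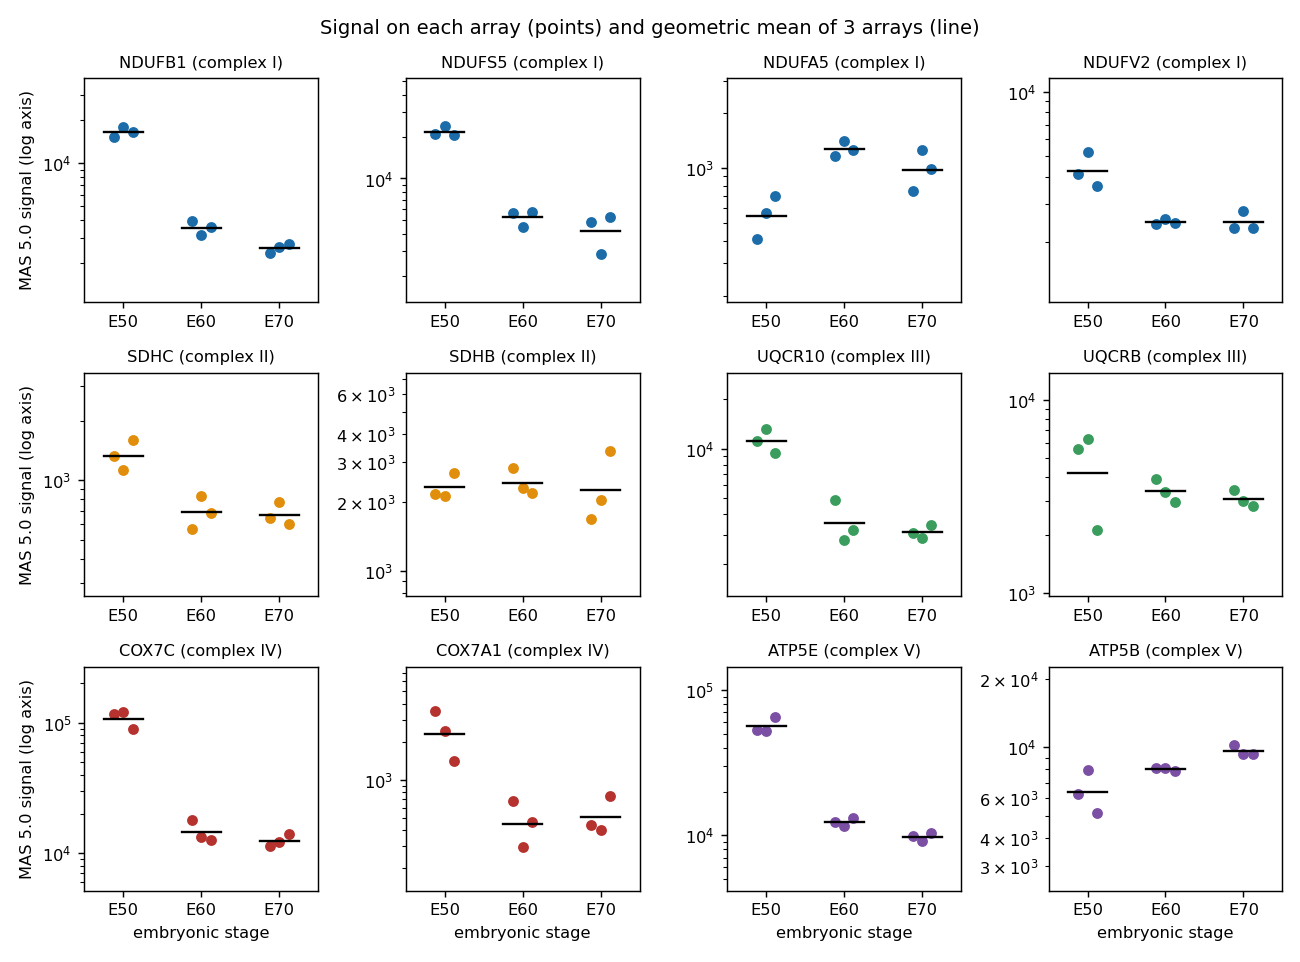
MAS 5.0 signal on each of the 9 arrays (points, log axis) and the geometric mean of the 3 arrays of a stage (line) for 12 members, by embryonic stage. NDUFB1, NDUFS5, UQCR10, COX7C, COX7A1 and ATP5E have all E60 and E70 points below all E50 points, NDUFA5 has all of them above, and SDHB and UQCRB overlap between stages.

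Between E60 and E70 the members changed little. No member was called higher or lower at E70 against E60 by limma, where 0.118% of all genes were called higher and 0.606% lower. At an unadjusted p under 0.05, 0 members were higher and 5 were lower, where 4.46% and 5.22% of all genes were. The 5 were NDUFA4, NDUFB2, NDUFB3, NDUFB5 and COX6C. A fit that let the prior variance follow the signal called 1 member lower, COX6C (adjusted p = 0.0112). The median change was -0.10, against 0.05 over all genes, and single changes ran from -0.73 (NDUFB5) to 0.48 (NDUFB9). All E70 arrays lay below all E60 arrays for 12 members and above them for 4, where 15.7% and 18.4% of all genes did so.

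COX6C gave 15696, 15286 and 15393 at E70, against 22948, 21248 and 24836 at E60 (-0.57, SE 0.19, adjusted p = 0.459). NDUFB5 gave 1224, 2258 and 1857 at E70, against 2994, 2981 and 2622 at E60 (SE 0.28, adjusted p = 0.552). NDUFB9 gave 3433, 3363 and 2956 at E70, against 2381, 2028 and 2609 at E60 (SE 0.23, adjusted p = 0.735). For each of these genes the arrays of E70 and E60 did not overlap, yet the changes were below what passed the test. The median change by complex was -0.03 for complex I, -0.07 for complex II, -0.16 for complex III, -0.18 for complex IV and -0.14 for complex V.

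At E70 against E50, 26 members were lower and none was higher by limma, where 14.3% of all genes were called lower and 7.33% higher. At an unadjusted p under 0.05, 3 members were higher, where 15% of all genes were. All E70 arrays lay below all E50 arrays for 36 members and above them for 4, where 25.5% and 18% of all genes did so. The E70 and E60 comparisons share the E50 arrays. Of the members, 24 were lower in both, 3 at E60 only and 2 at E70 only, and the median change at E70 was -0.65, against -0.11 over all genes. The lower members were 13 of 36 in complex I, 1 of 4 in complex II, 1 of 2 in complex III, 6 of 7 in complex IV and 5 of 14 in complex V. With arrays centred on their medians, 17 members were lower and 8 were higher, where 5.65% of all genes were lower and 21.9% higher.

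The members lowest at E70 against E50 were COX7C (-3.11, SE 0.25, adjusted p = 0.000611), with 11273, 12115 and 14046 at E70, and NDUFB1 (-2.68, SE 0.21, adjusted p = 0.000544), with 2366, 2606 and 2741 at E70. ATP5E changed by -2.53, NDUFB2 by -2.52, NDUFB5 by -2.50, ATP5L by -2.33, COX7A2 by -2.31, COX7A1 by -2.17, UQCR10 by -1.84 and SDHC by -0.996. Each of these had all its E70 arrays below all its E50 arrays. ATP5I, subunit e of the ATP synthase membrane part, was called lower at E70 but not at E60. It gave 616, 801 and 625 at E70, against 1810, 1752 and 3377 at E50 (-1.71, SE 0.46, adjusted p = 0.0396), and the call was lost without E50 replicate 3, E60 replicate 1 or any E70 array. The COX7A1 call was lost without E70 replicate 1 or 2, and the SDHC call without any one of the E60 or E70 arrays. Among the other calls at E70, NDUFB3 was lost without E70 replicate 1 or 3, NDUFB4 without E70 replicate 2 or 3 and NDUFV2 without any array but E50 replicate 3.

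The difference between the steps, E70 minus E60 less E60 minus E50, was called for 2 members, both positive, where 1.29% of all genes had a called positive difference and 1.14% a negative one. By the brightest probe set, COX7C had a difference of 2.70 (adjusted p = 0.0352) and ATP5L one of 2.13 (adjusted p = 0.0442). For both genes another probe set was called higher at E60 against E50, as given in the next paragraph. For the other members the steps were not shown to differ. Over the 3 stages together, the moderated F called 25 of the 63 genes, where 20.6% of all genes were called.

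For 14 genes there was more than 1 probe set, and the other probe sets did not always move as the brightest one did. Of 17 other probe sets, 12 had the sign of the brightest one for E60 minus E50, and 6 were below background on all E50 arrays. In that comparison 5 of the 17 were called higher and 1 lower. Of all genes, each by its brightest probe set, 7.2% were higher and 13.7% lower. The second COX7C probe set gave 90, 127 and 116 at E60, against 10, 8 and 21 at E50, and was called higher (adjusted p = 0.00334). Its E50 signals were all below background, and the geometric mean background at E50, 194, was above its E60 signals, so no size is given. A dim ATP5L probe set gave 64, 76 and 95 at E60, against 20, 25 and 31 at E50, likewise below background at E50 and called higher (adjusted p = 0.00863). The third ATP5L probe set changed by -0.52 (adjusted p = 0.222). With the mean of all its probe sets in place of the brightest, COX7C changed by 0.16 at E60 against E50 and ATP5L by -0.37, and neither passed.

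SDHB and NDUFA1 had second probe sets above background on every array. That of SDHB gave 1265, 1414 and 1415 at E60, against 490, 565 and 557 at E50, and was called higher (1.35, SE 0.21, adjusted p = 0.00701), while the brightest SDHB probe set was level. That of NDUFA1 changed by -0.20 at E60 against E50, and at E70 it gave 1175, 1357 and 1297, against 694, 985 and 1106 at E50 (0.48, SE 0.25, adjusted p = 0.224), where the brightest one was lower (-1.86, SE 0.26, adjusted p = 0.00418). For COX7C, ATP5L, SDHB and NDUFA1 the direction or the call thus differed between probe sets of one gene.

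**Figure D3:**
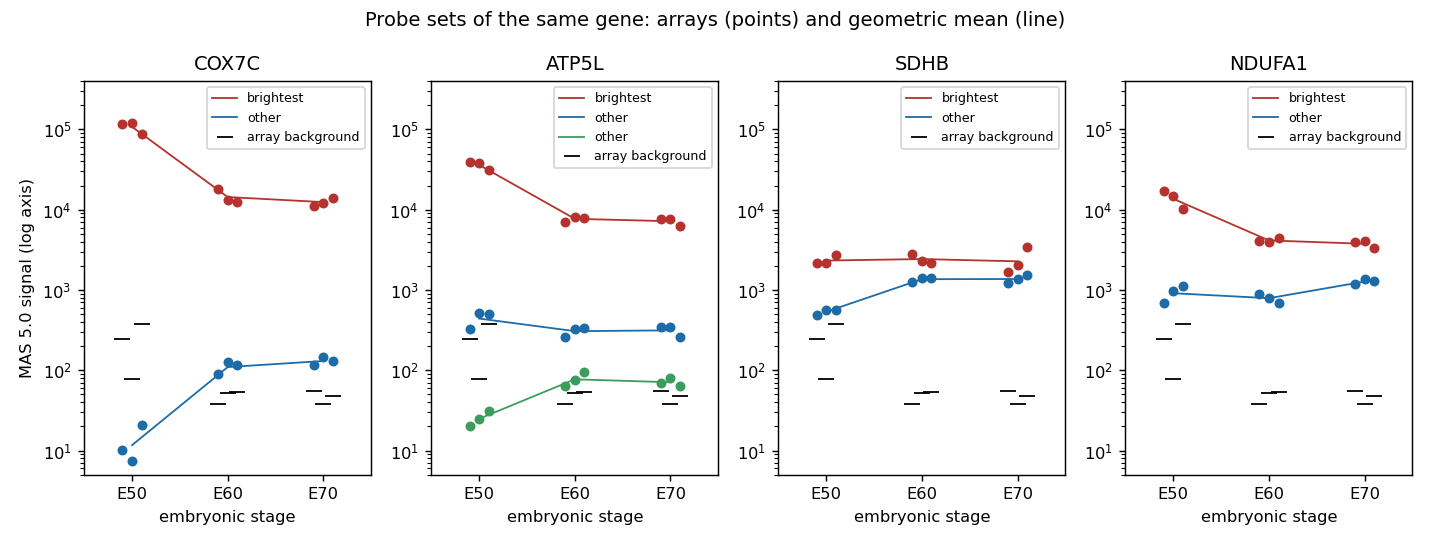
MAS 5.0 signal (log axis) of every probe set of COX7C, ATP5L, SDHB and NDUFA1 on each array (points) with the geometric mean per stage (lines), and the background of each array (black dashes). For COX7C the bright probe set falls at E60 while the dim one starts below background at E50, and for SDHB the dimmer one, above background throughout, is higher at E60 and E70.

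The changes of the members were set beside their brightness, read from the E70 arrays. The fitted differences between E60 and E50 do not use those arrays, but the calls share their spread and the probe set of each gene was picked by its signal on all 9 arrays. Of 35 members with a mean log2 signal above 11 at E70, 21 were lower at E60 than at E50 and none was higher, with a median change of -1.13. Among all 932 genes that bright, 17.5% were called lower and 18.9% higher. Of the 28 dimmer members 6 were lower and 1 was higher, with a median of -0.28, and of all 5833 dimmer genes 13.1% were lower and 5.33% higher. At the far bright end, above 13, a limit set after the values were seen, 3 of 6 members were lower (COX6C, COX7C and ATP5E, not ATP5A1, ATP5B or ATP5G3), and 39.9% of all 183 genes there were lower. Across genes, Spearman's rho between E70 signal and the change was -0.32 over the 63 members and 0.35 over all 6765 genes. Genes are not independent replicates and share the same arrays and the same scaling, so no p is given.

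**Figure D4:**
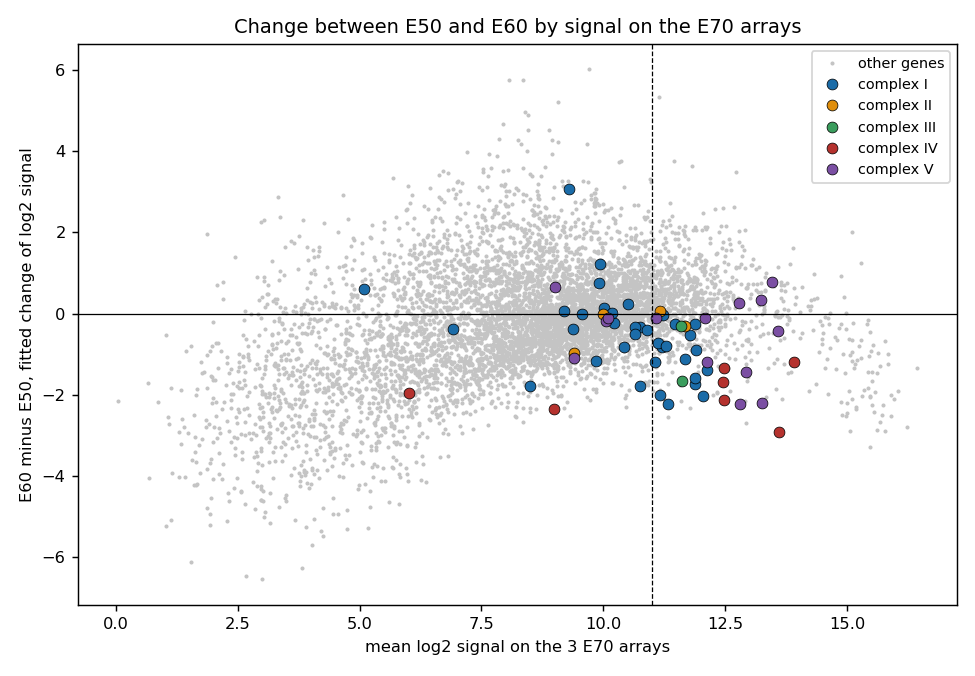
Mean log2 signal on the 3 E70 arrays against the fitted change E60 minus E50, for the members (coloured by complex) and all other genes (grey), with a dashed line at 11. To the right of that line 21 of 35 members were called lower and none higher, while all genes there lie on both sides of 0, with 17.5% called lower and 18.9% higher, and lean below 0 above 13.

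Other genes of the same organelle were counted in the same fit, in which 13.7% of all genes were lower and 7.2% higher at E60 against E50 and 14.3% lower and 7.33% higher at E70 against E50. Of 58 mitochondrial ribosomal protein genes, which serve translation inside mitochondria, 14 were lower and none was higher at E60 against E50, and 19 were lower at E70 against E50. Of 14 measured assembly factors beyond the NDUFAF genes, 3 were lower at E60 and none was higher. FOXRED1, a complex I assembly factor, gave 114, 133 and 117 at E60, against 343, 475 and 946 at E50 (-2.15, SE 0.42, adjusted p = 0.0148). TMEM186, also of complex I assembly, changed by -2.14 (SE 0.50, adjusted p = 0.0255), with 2 of 3 E60 arrays above background, and TMEM70, needed for ATP synthase assembly, by -1.30 (SE 0.25, adjusted p = 0.013). The same 3 genes were lower at E70 against E50, and no assembly factor was called between E60 and E70.

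A list of electron carriers, ubiquinone synthesis, exchange across the mitochondrial membranes and the ATP synthase inhibitor had 19 measured genes. At E60 against E50, 2 of them were higher and 1 was lower, beside the shares of all genes given above. SLC25A3, which brings in phosphate for the ATP synthase, gave 8603, 10127 and 9719 at E60, against 4810, 3632 and 4352 at E50 (1.16, SE 0.24, adjusted p = 0.017). VDAC2, a channel of the outer membrane, gave 3212, 3554 and 3194 at E60, against 1527, 882 and 927 at E50 (1.62, SE 0.29, adjusted p = 0.011). ATPIF1, the inhibitor of the ATP synthase, gave 4406, 5081 and 4347 at E60, against 13470, 12526 and 11400 at E50 (-1.44, SE 0.20, adjusted p = 0.00514). For none of these 3 genes did the arrays of E60 and E50 overlap.

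At E70 against E50, 3 genes of this list were higher and 4 were lower, where 7.33% and 14.3% of all genes were. SLC25A3 changed by 1.52, VDAC2 by 1.19 and ATPIF1 by -1.66. SLC25A4, the adenine nucleotide exchanger of heart and muscle, changed by -1.12 (adjusted p = 0.024), and COQ5, of ubiquinone synthesis, by -0.82 (adjusted p = 0.0453), while CKMT2, the creatine kinase of muscle mitochondria, was called lower (adjusted p = 0.0247), with no E70 array and 1 of 3 E50 arrays above background, so no size is given. SLC25A4 and CKMT2 are used in muscle, whose markers fell as given above, and the part of muscle tissue was not tested. CKMT1A, the creatine kinase of other mitochondria, gave 126, 128 and 150 at E70, against 29, 12 and 9 at E60, where it was below background. It was at least 2.82-fold higher at E70 than the background of the E60 arrays, and was the only gene of the list called between E60 and E70 (adjusted p = 0.0381). It was also called higher at E70 against E50 (adjusted p = 0.0177), where it was below the background of all 3 E50 arrays and has no size.

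Of 8 measured regulators of mitochondrial gene expression, 2 were higher at E60 against E50 and none lower. Over all genes 7.2% were higher and 13.7% lower. TFAM, which packages and transcribes mitochondrial DNA, gave 2467, 2591 and 2280 at E60, against 721, 858 and 937 at E50 (1.55, SE 0.22, adjusted p = 0.00516). HIF1A, the oxygen-sensitive subunit of a transcription factor, gave 5035, 5724 and 5295 at E60, against 2941, 3423 and 1811 at E50 (1.02, SE 0.28, adjusted p = 0.0444). TFAM was also higher at E70 against E50 (1.46, adjusted p = 0.00504). Neither gene was called between E60 and E70.

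Markers of the germ and of other tissues were read for the same arrays. Over all genes, 13.7% were called lower and 7.2% higher at E60 against E50. The shares were 14.3% and 7.33% at E70 against E50, and 0.606% and 0.118% at E70 against E60. Of 5 measured tooth epithelium markers none was called at E60 against E50. Their summed signal was 2136 to 2418 at E60, against 1940 to 2603 at E50, and 5072 to 5807 at E70. CDH1 (1.17) and EPCAM (1.77) were called higher at E70 against E50. Of 3 tooth mesenchyme markers 1, MSX1, was lower at E60, with sums of 4743 to 5156 at E60, against 6406 to 7364 at E50, and 6769 to 9530 at E70. Against E50, MSX1 was lower (-1.56) and DLX5 higher (0.88) at E70. Erythroid markers summed to 2978 to 3440 at E60, against 1967 to 2607 at E50, and 2713 to 4188 at E70. Of the 4 measured, HBB was higher at E60 (1.59) and E70 (2.07) against E50, and HBM (-2.22) and ALAS2 (-2.998) were lower at E70 against E50. Cartilage markers summed to 690 to 967 at E60, against 1070 to 1246 at E50, and 366 to 449 at E70. Among the 4 cartilage markers, 1 was called lower at E70 against E60 and 1 at E70 against E50. The part of these tissues in the changes of the members was not tested.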

How the data were processed

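RNA pooled from molar germs was hybridised to 9 Affymetrix porcine arrays, 3 per stage. In the deposited table each probe set has 1 linear intensity per array, which the authors obtained by the MAS 5.0 algorithm in GeneSpring and which is scaled array by array. Detection calls were not used here. With 3 arrays per stage and no read depth, precision rests on the number of arrays and on how far a signal lies above background.

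The log2 of each value was used after raising any value below 1 to 1. Of 24123 probe sets 124 controls were set aside. Symbols came from the platform annotation: 10069 probe sets had 1 symbol and 198 had several, including 1 that carries ATP5SL and was left out. The Entrez numbers of all 63 members matched the pig RefSeq table, and older symbols are kept.

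Stages were compared in 1 fit of all 9 arrays with limma 3.58.1 in R 4.3.3 (lmFit and eBayes, prior degrees of freedom 1.47), with Benjamini-Hochberg adjustment over 23999 probe sets. The fit was tested on simulated data in which every probe set had the median spread of its stage. Of the sizes set, it recovered most of the largest changes, few or none of the middle ones and none of the smallest. The shared spread let through more false calls in comparisons with E50 than the threshold allows. Most members had a smaller E50 spread than the one simulated, so neither outcome gives the power or the false calls for them. Values per array were planned, for each complex and comparison, for up to 3 called members in each direction with the largest change and arrays that did not overlap. The same held for all SDH genes, tissue isoforms and members whose probe sets disagree. In each list of other mitochondrial genes it held for up to 2 called genes in each direction. For some of these, mostly at E70, the array values are not printed. The other members shown array by array were chosen after their values were seen. Members, lists and markers were chosen with earlier results of these data known.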

Additional observations from a re-analysis of the deposited data

How the results depend on the processing

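Centring each array on its median shifted the median of all probe sets by 0.77 for E60 minus E50 and changed the counts most: 9 members lower and 7 higher at E60, and 17 lower and 8 higher at E70, against E50. Members lower at E60 against E50 numbered 17 with array quality weights, and members higher numbered 0 with weights or with the compared stages fitted alone and 2 with the mean of all probe sets. At E70 against E50 members higher numbered 2 after quantile normalization, 3 with an intensity trend and robust prior and 1 with the mean of all probe sets. With the trend 1 member was lower at E70 against E60. The members' median relative to all genes was -0.31 for E60 minus E50, -0.55 after quantile normalization and -0.45 with a filter on dim probe sets. It was -0.15 for E70 minus E60, -0.094 after quantile normalization and -0.081 with the mean of all probe sets. It was -0.54 for E70 minus E50, -0.72 after quantile normalization and -0.68 with the filter. COX7C reversed with the mean of all probe sets, to 0.16 at E60 and 0.18 at E70, against E50. The cause was not tested in these cases, beyond the opposed probe sets of COX7C.

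Leaving out 1 array at a time gave 19 to 27 members lower and 0 to 2 higher for E60 minus E50, with relative medians of -0.435 to -0.302, and 21 to 28 lower and 0 to 2 higher for E70 minus E50. For E60 minus E50, 18 of 28 called members passed in all 9 such fits and 10 were lost in at least 1: NDUFA3, NDUFA5, NDUFB4, NDUFB7, NDUFB9, NDUFB11, NDUFC1, NDUFV2, SDHC and COX7A1. For E70 minus E50, 20 of 26 passed in all 9.

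Arrays with the same replicate number did not deviate together (correlations of -0.021 to 0.026 over 9 pairs), so the numbers do not pair the arrays. With the replicate number as a block, 22 members were lower at E60 and 22 at E70 against E50, all among those called without it.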
